A study of Mus musculus with 4 samples.

Results

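The genes examined here were 36 genes of the cell cycle and of DNA replication, taken as listed by symbol. All 36 were rows of each of the 4 single-cell RNA-seq (scRNA-seq) libraries, which listed 31765 genes in each plaque library and 26391 and 27696 genes in the control and Trf2T188A ligation libraries. They fall into 5 groups by role: 16 genes of late S phase, G2 and mitosis (called mitotic genes below), 12 genes of the DNA replication machinery, 3 regulators of the G1/S transition, the 3 D-type cyclins, and lamin B1 with HMGB2.

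Vascular smooth muscle cells (VSMCs) were profiled in 2 mouse models, with 1 library per genotype in each. Plaque cells came from the aortic root, aortic arch and carotid arteries of Myh11-CreERt2/Confetti/ApoE-/- mice, called ApoE-/- below, and of Myh11-CreERt2/Confetti/Sm22a-Trf2T188A/ApoE-/- mice, called Trf2T188A/ApoE-/-. All plaque donors were C57Bl/6 (C57Bl6/J in the study's methods) males without ApoE, were given tamoxifen from 6 weeks of age to mark cells that use the Myh11 promoter with the Confetti reporter, and ate a high fat diet for 14 weeks. Ligation cells came from ligated carotid arteries of wild type control and SM22a-TRF2T188A (Trf2T188A) C57Bl/6 (likewise C57Bl6/J) males operated at 4 to 5 months of age, 28 days after surgery and without the adventitia. The transgene encodes a mutant form of TRF2, a protein that caps telomeres, and is driven by a minimal Sm22a promoter that is active in arterial VSMCs. How many mice were pooled into a library is not given in the sources used here. With 1 library per genotype no test between genotypes was possible, so values are given with 95% intervals that cover counting error only, and molecules from the same cell are not independent counts.

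The plaque libraries held 1502 ApoE-/- and 929 Trf2T188A/ApoE-/- cells with medians of 22765.5 and 24377 unique molecular identifiers (UMIs, each standing for 1 captured RNA molecule) per cell, and the ligation libraries held 4967 control and 5392 Trf2T188A cells with medians of 8631 and 11153 UMIs. Since depth sets how many genes are detected in a cell, shares of cells are also given after thinning every cell to 5000 UMIs, which left out 22, 67, 325 and 154 cells of these libraries. Between 0 and 10 cell barcodes were shared by any pair of libraries. Terf2, which encodes TRF2, stood at 18.3 UMIs per 1000000 UMIs (CPM) in both plaque libraries, at 17.9 in the ligated control and at 16.8 in the ligated Trf2T188A library. The endogenous transcript and the transgene are not separated in these counts, so Terf2 did not tell the genotypes apart.

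A cell that leaves rest first makes D-type cyclins, which partner CDK4 and CDK6. These kinases release E2F transcription factors from the retinoblastoma protein, and E2F factors switch on cyclin E and the replication genes, so that the MCM helicase is loaded on origins and DNA is copied. In G2 a later wave of genes makes the mitotic cyclins, the spindle motors and the kinases that separate chromosomes. Contractile VSMCs in a healthy artery are mostly quiescent, and they can enter the cycle again when they de-differentiate in plaques and after injury.

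Mitotic genes were detected in few cells, and nearly all of those that carried many of them stood well apart from the rest. In the ApoE-/- plaque library 1149 of 1502 cells (76.5%) had no UMI of any of the 16 mitotic genes, 262 had a UMI of 1 gene, 58 of 2 genes, 17 of 3 to 7 genes and 16 of 8 or more. In the Trf2T188A/ApoE-/- plaque library the same counts were 718, 152, 38, 14 and 7 cells. The ligated control library had 4055, 787, 94, 21 and 10 cells, and the ligated Trf2T188A library had 4198, 1004, 154, 20 and 16 cells. The distribution was thus split, with 0, 2, 0 and 3 cells in these libraries carrying 6 to 8 of the genes. Cells with at least 3 mitotic genes formed the mitotic class. The limit of 3 lies on a slope rather than in a gap, since 13 and 9 plaque cells and 18 and 16 ligation cells had exactly 3 genes, while 58, 38, 94 and 154 had exactly 2. For this reason cells with at least 8 mitotic genes, called mitotic-high cells, are described as well, a limit chosen after these numbers had been seen.

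**Figure D1:**
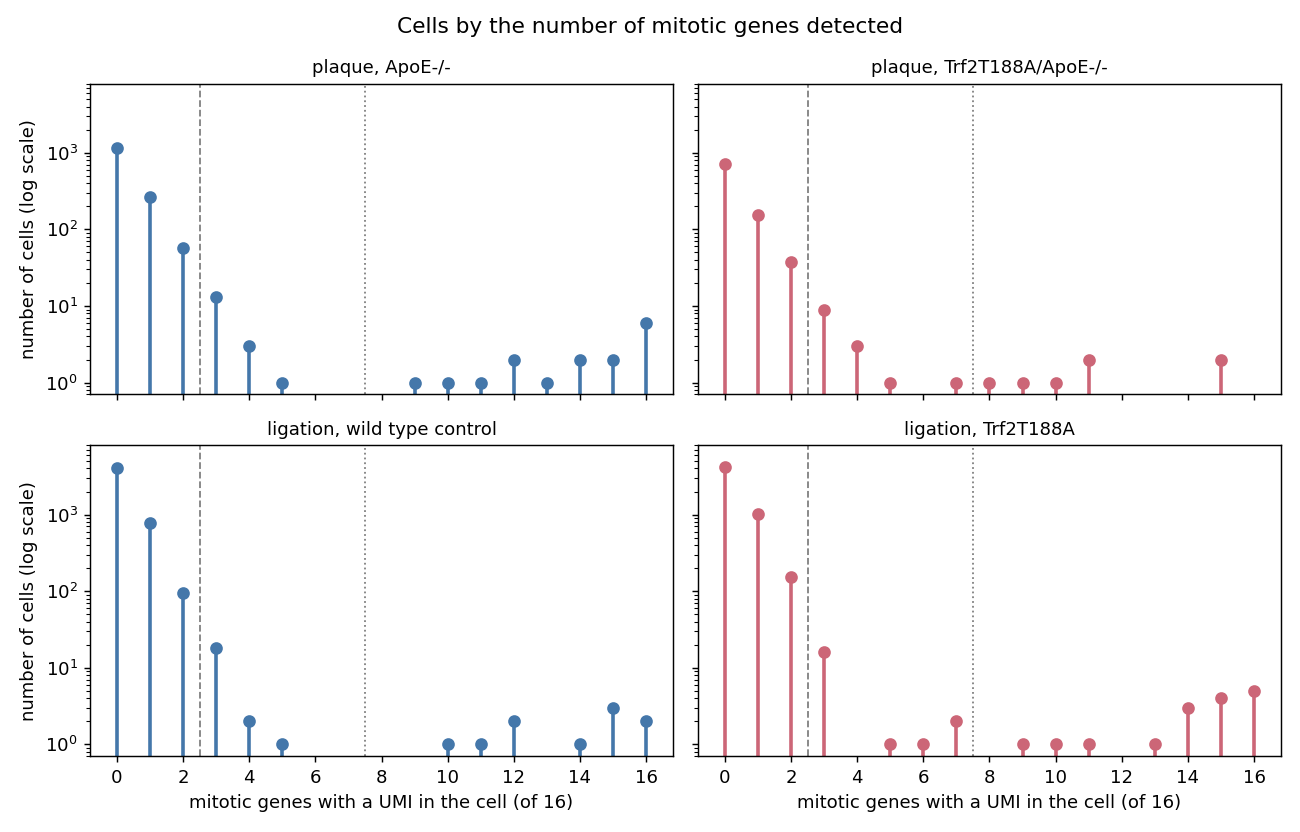
Number of cells (log axis) against the number of the 16 mitotic genes with at least 1 UMI, in each of the 4 libraries; the dashed line marks the limit of 3 genes and the dotted line that of 8. Most cells have no mitotic gene, and the cells with 8 or more (16, 7, 10 and 16 in the plaque ApoE-/-, plaque Trf2T188A/ApoE-/-, ligated control and ligated Trf2T188A libraries) are separated from the rest by a sparse stretch.

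The share of plaque cells in the mitotic class was 2.20% in ApoE-/- (33 of 1502, interval 1.52 to 3.07%) and 2.26% in Trf2T188A/ApoE-/- (21 of 929, 1.41 to 3.44%). After thinning the shares were 1.01% (15 of 1480) and 0.696% (6 of 862). Mitotic-high cells made up 1.07% of ApoE-/- cells (0.610 to 1.72%) and 0.754% of Trf2T188A/ApoE-/- cells (0.304 to 1.55%). The intervals of the genotypes overlapped under each of these limits, so a difference in mitotic share between plaque genotypes was not detectable at this number of cells.

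In ligated arteries the shares were taken over smooth muscle cells, that is all clusters without leading endothelial or myeloid markers. The mitotic class held 0.430% of control cells (21 of 4886, 0.266 to 0.656%) and 0.607% of Trf2T188A cells (32 of 5269, 0.416 to 0.856%). Mitotic-high smooth muscle cells were 4 of 4886 in the control (0.0819%, 0.0223 to 0.210%) and 14 of 5269 in Trf2T188A (0.266%, 0.145 to 0.445%). The Trf2T188A share was thus higher under both limits, with intervals that overlapped, and it stayed higher after thinning (0.293% against 0.131% for the mitotic class). Seurat phase calls went the other way, with 28.3% of control cells (27.0 to 29.6%) and 26.2% of Trf2T188A cells (25.0 to 27.4%) called G2/M. Cells with 0 mitotic genes had medians of 8400 UMIs in the control and 10812 in Trf2T188A, so the genotypes also differed in depth in that direction, whose part in the unthinned difference was not tested.

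Cells were clustered without the cell cycle genes, and clusters were named only from fixed marker lists. In plaques the mitotic class was concentrated in cluster 4, a modulated (fibromyocyte) smooth muscle-like cluster with 11 of 12 markers raised. It held 35 of 288 cells of this cluster (12.2%, 8.61 to 16.5%), against 2 of 1091 cells of the contractile smooth muscle-like clusters 0, 1 and 3 (0.183%, 0.0222 to 0.661%). These were 1 of 421, 1 of 371 and 0 of 299 cells by cluster, and they are given by number because the 10 leading genes of cluster 0 held no contractile marker and 1 of the remodelling list, Igfbp2, although all 8 contractile markers were raised in it. At equal depth the contrast remained, with 7.19% (20 of 278) in cluster 4 and 0 of 1067 thinned cells of the contractile-like clusters. Of the other named states, 8 of 197 complement and acute-phase smooth muscle-like cells (4.06%, 1.77 to 7.85%) and 4 of 144 chondrocyte-type smooth muscle-like cells (2.78%) were in the class, and none of either was after thinning. The median cell of cluster 4 had 31783 UMIs and that of cluster 0 had 25319, so the unthinned shares were read at unlike depths. The shares in cluster 4 were 13.5% in ApoE-/- (22 of 163, 8.66 to 19.7%) and 10.4% in Trf2T188A/ApoE-/- (13 of 125, 5.66 to 17.1%), with overlapping intervals.

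All 16 mitotic-high ApoE-/- cells and 6 of the 7 mitotic-high Trf2T188A/ApoE-/- cells lay in cluster 4, and the remaining cell lay in the unnamed cluster 2. They were 9.82% (5.72 to 15.5%) of the ApoE-/- cells and 6 of the 125 Trf2T188A/ApoE-/- cells (1.78 to 10.2%) of cluster 4. The name of their cluster depended on the grouping. With a lower clustering resolution 21 of the 23 cells were in a chondrocyte-type-like cluster, and with a higher one 20 were in a remodelling-like cluster. When every gene raised in mitotic-high cells was also left out of clustering, a setting chosen after the data were seen, 19 of the 23 stayed modulated-like.

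In ligated arteries the mitotic class lay mainly in another named state. The remodelling smooth muscle-like cluster 0, with all 6 of its markers raised, had 33 of 3961 cells (0.833%, 0.574 to 1.17%) in the mitotic class and all 18 mitotic-high smooth muscle cells, 4 from the control and 14 from Trf2T188A. When every gene raised in mitotic-high cells was also left out of clustering, 11 of these 18 cells stayed in a remodelling-like cluster, 4 were in unnamed clusters, 2 in an interferon-responding-like and 1 in a modulated-like cluster. The modulated-like cluster 2 had 13 of 2218 cells (0.586%) in the mitotic class, none of them mitotic-high, and 0 of 2096 after thinning, which allows a share of up to 0.143%. The unnamed cluster 1 had 7 of 3799 cells (0.184%), and the 177 interferon-responding smooth muscle-like cells had none, which allows up to 1.69%. Within cluster 0 the class held 0.588% of control cells (12 of 2042, 0.304 to 1.02%) and 1.09% of Trf2T188A cells (21 of 1919, 0.679 to 1.67%).

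The highest share in the ligation libraries was not in smooth muscle. Of 77 myeloid-like cells, with all 9 myeloid markers raised, 11 were in the mitotic class (14.3%, 7.35 to 24.1%) and 8 were mitotic-high. These were 7 of 19 cells in the control (36.8%, 16.3 to 61.6%) and 4 of 58 in Trf2T188A (6.90%, 1.91 to 16.7%). The 2 intervals overlapped only between 16.3 and 16.7%, and the control share rests on 19 cells. Among endothelial-like cells the class held 3 of 127 cells, all of them from the control.

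**Figure D2:**
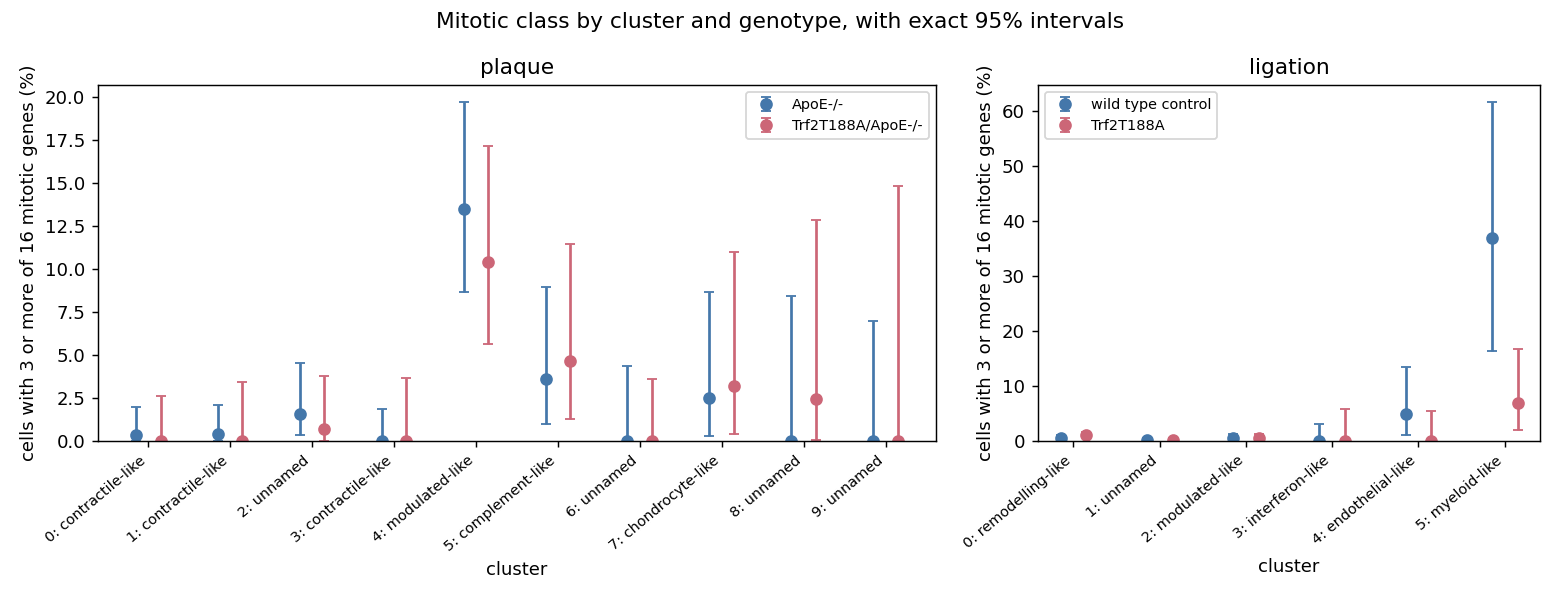
Share of cells (%) with at least 3 of 16 mitotic genes by cluster in plaque (left) and ligation (right), for clusters with at least 15 cells in both libraries; points are the libraries of each genotype and bars exact 95% binomial intervals that cover counting error. Plaque cluster 4 (13.5% and 10.4%) and the ligation myeloid-like cluster 5 (36.8% and 6.90%) stand above the other clusters.

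The replication class was set as cells with at least 6 of the 12 replication genes. It held 1.86% of ApoE-/- plaque cells (28 of 1502, 1.24 to 2.68%) and 3.55% of Trf2T188A/ApoE-/- plaque cells (33 of 929, 2.46 to 4.95%). At 5000 UMIs the order turned, with 4 of 1480 cells (0.270%) and 0 of 862 cells, which allows up to 0.348%, so the unthinned order is not read as a difference. In ligated smooth muscle cells the class held 0.225% of control cells (11 of 4886, 0.112 to 0.403%) and 0.550% of Trf2T188A cells (29 of 5269, 0.369 to 0.790%), and after thinning 0 of 4571 and 5 of 5127 cells (0.0975%). In ApoE-/- plaques the unthinned class was again most frequent in cluster 4, at 11.7% (19 of 163). In Trf2T188A/ApoE-/- plaques cluster 4 had 7.20% (9 of 125), below clusters 5 and 8 of that library.

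Outside cluster 4, replication-class cells of the Trf2T188A/ApoE-/- plaque library were seen mainly in clusters 2, 5 and 8, which held 1 mitotic-high cell in all and are singled out after their values were seen. The complement and acute-phase-like cluster 5 had 8 of 86 Trf2T188A/ApoE-/- cells (9.30%, 4.10 to 17.5%) and 0 of 111 ApoE-/- cells, which allows up to 2.70%. The unnamed clusters 2 and 8 had 6 of 145 and 5 of 41 Trf2T188A/ApoE-/- cells against 1 of 190 and 1 of 42 ApoE-/- cells. None of the cells of these 3 clusters remained in the class after thinning.

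Mitotic-high plaque cells had many UMIs and carried smooth muscle transcripts. Their median was 59004 UMIs in ApoE-/- and 53759 in Trf2T188A/ApoE-/-, above the median of 30263 in the other cells of cluster 4. Choosing cells by the number of genes detected favours deep cells. In ApoE-/- the median was 21450 UMIs with 0 mitotic genes, 27528 with 1 to 2 and 39333 with 3 to 7. The part of this choice in the depth of mitotic-high cells was not tested. None of the 23 was among the 5% of cells with the highest doublet scores. Summed over their marker lists, contractile transcripts ranged from 2.25 to 271 UMIs per 10000 and modulated transcripts from 26.3 to 676. Myeloid transcripts reached at most 0.504 UMIs per 10000 and endothelial transcripts at most 12.7. A single ApoE-/- cell had 940 chondrocyte-type UMIs per 10000 beside all 16 mitotic genes, and the others had at most 18.1. By the Seurat phase score 19 of the 23 were called G2/M and 4 were called S, and all 4 S-phase calls were ApoE-/- cells. A UMI of any of the 4 Confetti reporters, which mark the progeny of Myh11-expressing cells, was present in 19 of 23 mitotic-high cells (82.6%) and in 84.3% of all plaque cells. At 5000 UMIs these shares were 30.4% (7 of 23, 13.2 to 52.9%) in mitotic-high cells, 45.3% in the other cells of cluster 4 and 72.7% in the contractile-like clusters.

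The genes that did not define mitotic-high cells were compared between these cells and the other cells of the same cluster, as a description of the cells and with both genotypes together. The replication genes were higher in mitotic-high cells for 12 of 12 genes in plaque cluster 4 (22 against 266 cells) and for 12 of 12 in ligation cluster 0 (18 against 3943 cells), with median log2 ratios of 3.45 and 3.95 of CPM. Over all genes with at least 20 UMIs in these cells, 52.6% of 12666 were higher in plaque and 49.4% of 14633 in ligation, with medians of 0.04 and −0.01. The count of 12 was not taken by library. Over the Trf2T188A/ApoE-/- plaque library Mcm4 had 9.89 CPM with the mitotic-high cells and 9.925 without them. Pcna had 47.41 and 47.39 CPM there, and Tyms 9.39 and 8.785. Over the ApoE-/- library these values were 10.09 and 9.527 (Mcm4), 51.36 and 47.9 (Pcna) and 11.35 and 8.092 (Tyms). Mcm4 and Pcna were thus not clearly raised in Trf2T188A/ApoE-/- mitotic-high cells. In plaque cluster 4 Rrm2, the small subunit of ribonucleotide reductase, had 99 UMIs in the 22 cells and 15 in the 266, and in ligation cluster 0 it had 85 UMIs in the 18 cells and 103 in the 3943. Pcna, the sliding clamp of DNA polymerase, had 192 and 399 UMIs in plaques and 90 and 2494 in ligated arteries, so in both clusters most Pcna molecules lay in cells with under 8 mitotic genes. Hmgb2, a chromatin protein, had log2 ratios of 3.96 and 3.42, and Lmnb1, which encodes lamin B1 of the nuclear lamina, had 3.06 and 4.33.

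The D-type cyclins did not follow the other groups. Ccnd2 averaged 4.09 UMIs per mitotic-high cell and 9.39 per other cell of plaque cluster 4, a log2 ratio of CPM of −1.97, and its log2 ratio was −0.97 in ligation cluster 0. Ccnd1 stood at 8.50 and 3.01 UMIs per cell in plaque cluster 4, with log2 ratios of 0.72 and 0.89 in the 2 models. The direction in plaque was not shared by the genotypes. In ApoE-/- cells of cluster 4 Ccnd1 had 102.6 CPM with the mitotic-high cells and 105.1 without them. The Trf2T188A/ApoE-/- cells of cluster 4 had 86.75 and 65.22 CPM. Ccnd3 had log2 ratios of −0.01 and 0.45. The mitotic-high cells thus held fewer Ccnd2 molecules per cell than their neighbours in plaque although they held more UMIs in all.

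**Figure D3:**
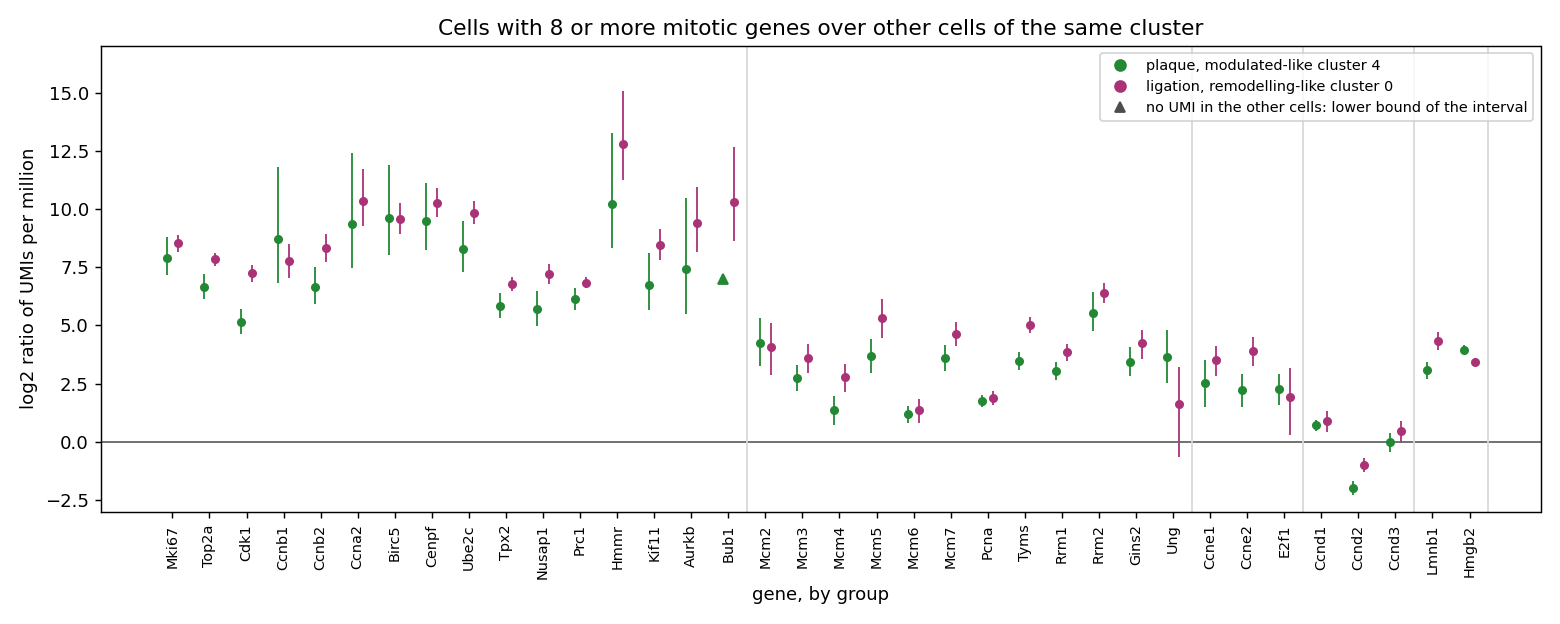
Log2 ratio of CPM in cells with at least 8 mitotic genes over the other cells of the same cluster, for each of the 36 genes in plaque cluster 4 (green) and ligation cluster 0 (purple); bars are exact 95% intervals of counting error, and a triangle marks the lower bound where the other cells had no UMI. The 16 mitotic genes at the left chose the cells and are shown for scale. With the genotypes pooled, the replication genes lie above 0 in both models, and Ccnd2 lies at −1.97 and −0.97.

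Other genes of the pathway, in lists set by textbook roles, were compared in the same way. Among genes with at least 20 UMIs, 22 of 23 plaque and 21 of 22 ligation genes of mitotic kinases, checkpoint and spindle were higher in mitotic-high cells, with median log2 ratios of 6.08 and 6.90, where 52.6% and 49.4% of all genes were higher. Fork and nucleotide enzymes were higher for 23 of 23 genes in both models (medians 2.46 and 2.88), and origin licensing and firing genes for 15 of 15 and 17 of 17 (1.77 and 3.55). CDK inhibitors were mixed. Cdkn2c and Cdkn2d, the INK4 inhibitors p18 and p19, had log2 ratios of 2.08 and 2.08 in plaque and 3.22 and 3.32 in ligation. Cdkn1a, which encodes p21, had −0.17 and 1.62, and Cdkn2a had 1.02 and 1.76.

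The promoters of the mitotic and the replication genes differed in how often they held some sequence elements and not others, given here as counts without a test. A RefSeq window from 250 bases before to 50 bases after the start was matched for 27 of the 36 genes by symbol. The CHR element (TTTGAA), known as a site of the DREAM and B-MYB complexes, was present on either strand in 9 of 13 mitotic windows (69.2%), in 1 of 10 replication windows (10.0%) and in 20.2% of the windows of all 27025 genes. The CCAAT box (CCAAT), bound by NF-Y, was in 84.6% of mitotic and 80.0% of replication windows and in 41.1% of all. The E2F element (GCGGGAA or GCGCGAA) was in 2 of 13 mitotic (15.4%), 5 of 10 replication and 6.9% of all windows. A match is a description of the letters and not of binding. The 150 bases before the start of 4 mitotic and 2 replication genes are shown, 5′ to 3′ on the strand of the gene, because these genes carry the results below and hold the elements in different combinations. Capitals mark the elements, which read as their reverse complement where they lie on the opposite strand.
Mki67: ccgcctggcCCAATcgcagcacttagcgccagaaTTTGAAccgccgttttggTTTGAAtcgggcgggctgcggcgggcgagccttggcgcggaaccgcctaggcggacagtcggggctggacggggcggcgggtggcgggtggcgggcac
Top2a: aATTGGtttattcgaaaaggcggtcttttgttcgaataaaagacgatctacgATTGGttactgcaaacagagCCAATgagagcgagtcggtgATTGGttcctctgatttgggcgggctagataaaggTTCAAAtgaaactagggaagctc
Cdk1: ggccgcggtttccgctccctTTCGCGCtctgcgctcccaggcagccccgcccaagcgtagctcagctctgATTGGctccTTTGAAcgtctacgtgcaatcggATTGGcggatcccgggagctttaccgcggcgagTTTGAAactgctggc
Ccnb2: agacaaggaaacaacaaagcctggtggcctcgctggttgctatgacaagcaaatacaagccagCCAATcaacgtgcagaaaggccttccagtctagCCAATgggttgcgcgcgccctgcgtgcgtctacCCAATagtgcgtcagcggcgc
Mcm3: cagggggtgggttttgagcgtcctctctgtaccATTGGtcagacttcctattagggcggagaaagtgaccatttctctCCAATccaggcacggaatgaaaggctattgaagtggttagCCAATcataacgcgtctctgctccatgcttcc
Mcm6: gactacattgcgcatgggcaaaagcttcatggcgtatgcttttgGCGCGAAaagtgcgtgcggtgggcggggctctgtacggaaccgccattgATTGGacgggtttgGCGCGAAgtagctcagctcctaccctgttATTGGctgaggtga
These windows lie on the minus strand of GRCm38 at chr7:135716380-135716529 (Mki67), chr11:99024190-99024339 (Top2a), chr10:69352913-69353062 (Cdk1), chr9:70421555-70421704 (Ccnb2), chr1:20820313-20820462 (Mcm3) and chr1:128359706-128359855 (Mcm6). Mki67 holds a CCAAT box and a pair of CHR elements, Top2a holds CCAAT boxes with a CHR element, Cdk1 holds CCAAT boxes with CHR elements and an E2F element, and the printed stretches of Ccnb2 and Mcm3 hold CCAAT boxes alone. Outside the printed bases, the full window of Ccnb2 also holds a CHR element and that of Mcm3 an E2F element. Mcm6 holds a pair of E2F elements with a pair of CCAAT boxes.

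The mitotic genes were next compared between genotypes as the log2 ratio of CPM, Trf2T188A over control, for genes with at least 50 UMIs over both libraries. In plaques Top2a, a topoisomerase that untangles DNA, had 527 UMIs in ApoE-/- (13.9 CPM) and 57 in Trf2T188A/ApoE-/- (2.37 CPM), a log2 ratio of −2.56 (−2.98 to −2.16). Mki67, the proliferation antigen, had 402 and 122 UMIs (10.6 and 5.07 CPM, log2 ratio −1.07). Cdk1, the kinase that drives mitosis, had 199 and 38 UMIs (log2 ratio −1.74). All 3 were lower in Trf2T188A/ApoE-/-, and 84.8%, 92.8% and 82.4% of their ApoE-/- UMIs, in this order, came from the 16 mitotic-high cells.

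Of the 16 mitotic genes, 10 were lower by at least 1.5-fold and none was higher, and the median log2 ratio was −1.17 against −0.02 over all 14685 genes tested. Among all genes 3.75% were lower and 2.01% higher by at least 1.5-fold. Besides the 3 genes above, the 10 included Ube2c, a ubiquitin-conjugating enzyme of the anaphase-promoting complex (319 and 50 UMIs, log2 ratio −2.02), the spindle proteins Nusap1 (−1.40), Prc1 (−1.28) and Kif11 (−1.41), and the kinetochore protein Cenpf (−1.38). Ccnb1, which encodes cyclin B1, had a log2 ratio of −0.76, and Aurkb, which encodes Aurora kinase B, had 51 UMIs and 1 UMI (log2 ratio −5.02, −10.35 to −2.47). The other 6 stayed within 1.5-fold. They were Ccnb2 (cyclin B2, 185 and 129 UMIs, log2 ratio 0.13), Birc5 (survivin, −0.14), Hmmr (a spindle-associated hyaluronan receptor, −0.22), Tpx2 (an activator of Aurora kinase A, −0.30), Bub1 (a spindle checkpoint kinase, −0.41) and Ccna2 (cyclin A2, −0.52).

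These ratios rested on 23 cells. The mitotic-high cells held a median of 92.0% of the UMIs of a mitotic gene in ApoE-/- and 85.1% in Trf2T188A/ApoE-/-. Without them, a setting chosen after the data were seen, 6 of the 16 genes still had 50 UMIs, their median log2 ratio was −0.13, and 2 of the 6 were lower and 1 higher by at least 1.5-fold. Top2a then had 80 and 40 UMIs (log2 ratio −0.36), Cdk1 had 35 and 24 (0.10), and Tpx2 had 81 in both libraries (0.64). In a sum over a library, fewer mitotic-high cells and less RNA of a gene per cell cannot be told apart, so the cells themselves were compared next.

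Within the mitotic-high plaque cells the mitotic genes were unequal between the libraries. Top2a was present in 13 of 16 ApoE-/- cells with a median of 18 and a highest value of 79 UMIs, and in 3 of 7 Trf2T188A/ApoE-/- cells with a median of 0 and a highest value of 12. Nusap1 was present in 11 of 16 and 2 of 7 cells, and Aurkb in 11 of 16 and 1 of 7. Ccnb2, in contrast, was present in 13 of 16 cells with a median of 5.5 UMIs and in 7 of 7 cells with a median of 12. Birc5, Hmmr and Mki67 were present in every mitotic-high cell of both libraries. Among the replication genes Pcna had 175 UMIs in the 16 ApoE-/- cells and 19 in the 7 Trf2T188A/ApoE-/- cells. Ung, the uracil-DNA glycosylase, had 21 and 0 UMIs. The 21 lay in 5 of the 16 ApoE-/- cells, with 11 in a single cell. The 7 Trf2T188A/ApoE-/- cells were all called G2/M and the 16 ApoE-/- cells included the 4 cells called S. These calls come from lists of cycle genes that include genes compared here, such as Pcna, Ung and Top2a. They are thus not a separate measure of stage. Whether the stage of the cycle differed between the sets, and its part in the gene levels, was not tested.

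**Figure D4:**
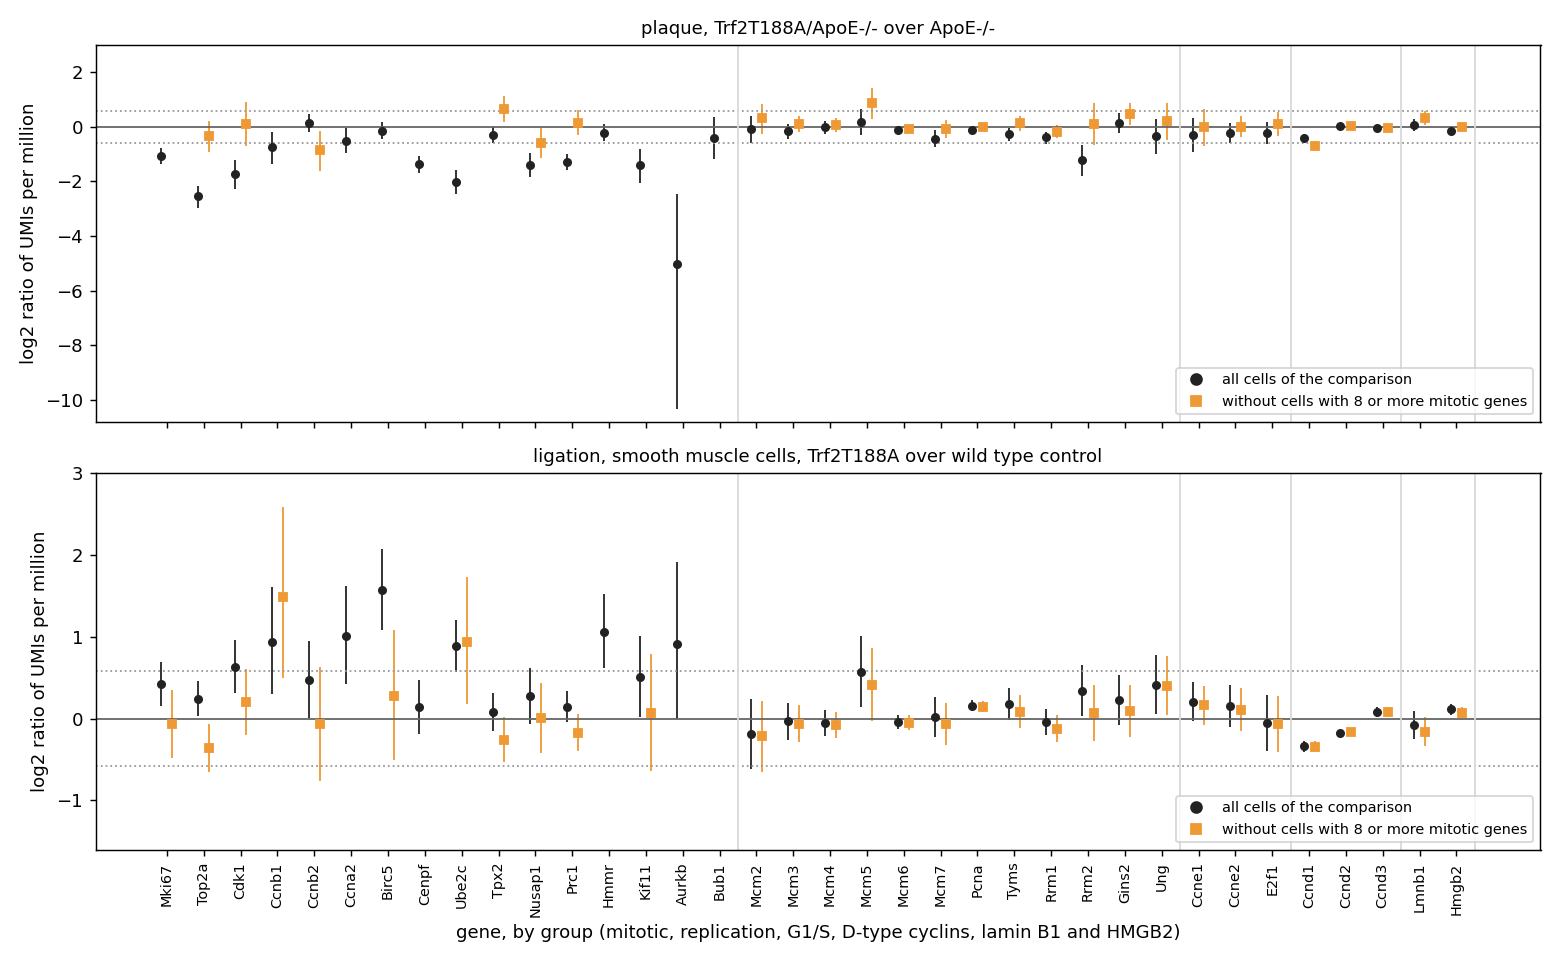
Log2 ratio of CPM, Trf2T188A over control, for the 36 genes in plaque (top) and in ligated smooth muscle cells (bottom), over all cells (black) and without cells with at least 8 mitotic genes (orange); bars are exact 95% intervals of counting error, dotted lines mark 1.5-fold, and genes under 50 UMIs are not drawn. The mitotic genes at the left lie mostly below 0 in plaque (median −1.17) and above 0 in ligation (median 0.51), and move toward 0 without the mitotic-high cells (−0.13 and 0.01).

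In ligated smooth muscle cells the mitotic genes lay higher in the Trf2T188A library. Birc5 had 45 UMIs in the control (0.963 CPM) and 187 in Trf2T188A (2.84 CPM), a log2 ratio of 1.56 (1.09 to 2.07). Hmmr had 57 and 167 UMIs (log2 ratio 1.06), Ccna2 had 33 and 93 (0.706 and 1.41 CPM), Ccnb1 had 29 and 78 (0.94), Ube2c had 119 and 308 (0.88) and Cdk1 had 120 and 261 (0.63). With Aurkb (14 and 37 UMIs, 0.91, −0.01 to 1.91) 7 of the 15 mitotic genes tested were higher by at least 1.5-fold and none was lower, where 3.11% of all 14973 genes were higher and 2.58% lower. Their median log2 ratio was 0.51, against −0.02 over all genes.

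The other mitotic genes lay above 0 by less in ligated arteries. Mki67 had 179 and 337 UMIs (3.83 and 5.12 CPM, log2 ratio 0.42), Top2a had 292 and 485 (0.24), and Tpx2 had 254 and 377 (0.08). Bub1 had 41 UMIs in all and was not tested. The 4 control and 14 Trf2T188A mitotic-high smooth muscle cells held a median of 50.4% and 64.1% of the UMIs of a mitotic gene. Without them the median over 11 genes was 0.01, with 6 genes above 0 and 5 below. By at least 1.5-fold 2 genes were higher, Ccnb1 (11 and 43 UMIs) and Ube2c (21 and 56 UMIs). Top2a then lay below 0, within 1.5-fold, with 195 and 213 UMIs (−0.36, −0.65 to −0.07). The plaque and ligation libraries went in opposite directions for the mitotic genes, and with 1 library per genotype that difference was not tested.

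The replication genes mostly stayed within 1.5-fold between genotypes. In plaques 1 of 12 was lower by at least 1.5-fold, Rrm2 with 129 and 35 UMIs (log2 ratio −1.23), and the median was −0.15. The MCM helicase subunits lay between −0.44 for Mcm7 and 0.17 for Mcm5, with Mcm2 at −0.09, Mcm3 at −0.18, Mcm4 at −0.03 and Mcm6 at −0.13. Pcna had 51.4 and 47.4 CPM (−0.12, −0.22 to −0.01). Tyms, the thymidylate synthase, had a log2 ratio of −0.27, Rrm1, the large subunit of ribonucleotide reductase, −0.40, Gins2, a helicase cofactor, 0.14 and Ung −0.35. Without mitotic-high cells the median was 0.09 and Mcm5 was higher with 51 and 59 UMIs (0.85, 0.29 to 1.42).

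In ligated smooth muscle cells none of the 12 replication genes passed 1.5-fold, and their median log2 ratio was 0.09. Pcna had 62.0 and 69.1 CPM (0.16, 0.09 to 0.22) and Mcm5 had 68 and 142 UMIs (0.57, 0.14 to 1.01). Gins2 had 54 and 121 UMIs in the remodelling-like cluster 0 (0.88, 0.41 to 1.37) and 40 and 31 in the modulated-like cluster 2 (−0.56, −1.29 to 0.15), so its direction was not shared by these clusters. The G1/S regulators, cyclins E1 and E2 (Ccne1, Ccne2) and the transcription factor E2f1, also stayed within 1.5-fold. Their log2 ratios were −0.30, −0.23 and −0.23 in plaque, with 66 and 34 UMIs of Ccne1, and 0.21, 0.15 and −0.05 in ligation, with 244 and 396 UMIs of Ccne1.

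Among the D-type cyclins, Ccnd1 varied most with cell state. Over plaque cells with under 8 mitotic genes it stood at 105 CPM (96.6 to 114) in ApoE-/- and 65.2 (57.1 to 74.2) in Trf2T188A/ApoE-/- cells of the modulated-like cluster 4. In the complement and acute-phase-like cluster 5 the levels were 45.9 and 23.5, and in the chondrocyte-type-like cluster 7 they were 23.0 and 5.53. In the contractile-like clusters 0, 1 and 3 the levels were between 0.252 and 7.44 in either library. Among the named smooth muscle-like states Ccnd1 was thus lowest in the contractile-like and highest in the modulated-like cells, and it was lower in the Trf2T188A/ApoE-/- library in each of clusters 4, 5 and 7. The unnamed cluster 2 went the other way at low levels, with 3 and 21 UMIs (0.601, 0.124 to 1.76, and 5.05 CPM, 3.13 to 7.72). The log2 ratios in clusters 5 and 7 were −0.97 (−1.42 to −0.53) and −2.05 (−3.03 to −1.20).

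Over all plaque cells Ccnd1 had 24.6 CPM in ApoE-/- and 18.2 in Trf2T188A/ApoE-/- (log2 ratio −0.43, −0.60 to −0.26), and without mitotic-high cells 23.0 and 14.1 (−0.71, −0.90 to −0.52). The difference between these values came with the 7 mitotic-high Trf2T188A/ApoE-/- cells, which held 106 of the 439 Ccnd1 UMIs of that library, 53 of them in a single cell. In ligated smooth muscle cells Ccnd1 had 73.5 and 58.3 CPM (−0.34, −0.40 to −0.27). By cluster, in cells with under 8 mitotic genes, it had 159 and 160 CPM in the modulated-like cluster 2, 59.7 and 54.0 in the remodelling-like cluster 0, 25.7 and 15.5 in the unnamed cluster 1 and 86.1 and 38.5 in the interferon-responding-like cluster 3. In the modulated-like cluster, where Ccnd1 was highest among smooth muscle cells, the log2 ratio was 0.01 (−0.09 to 0.10), and in cluster 3 it was −1.16 (−1.80 to −0.56).

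Ccnd2 was the most abundant of the 3 by UMIs and varied less with state. It had 247 and 252 CPM over the plaque libraries and was present in 89.7% and 85.8% of cells. By plaque cluster with at least 74 cells it lay between 203 and 292 CPM. The small fibroblast-like clusters 10 (22 cells) and 11 (14 cells) lay outside this range, at 371 and 127.5 CPM. In ligated smooth muscle cells it had 526 and 467 CPM (log2 ratio −0.17, −0.20 to −0.15), with 676 in the modulated-like cluster and 189 in myeloid-like cells. Ccnd3 had 59.1 and 57.5 CPM in plaque (−0.04) and 70.3 and 74.3 in ligation (0.08). Ccnd2 was thus detected in most plaque cells, where Ccnd1 was detected in 11.1% and 7.54%.

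**Figure D5:**
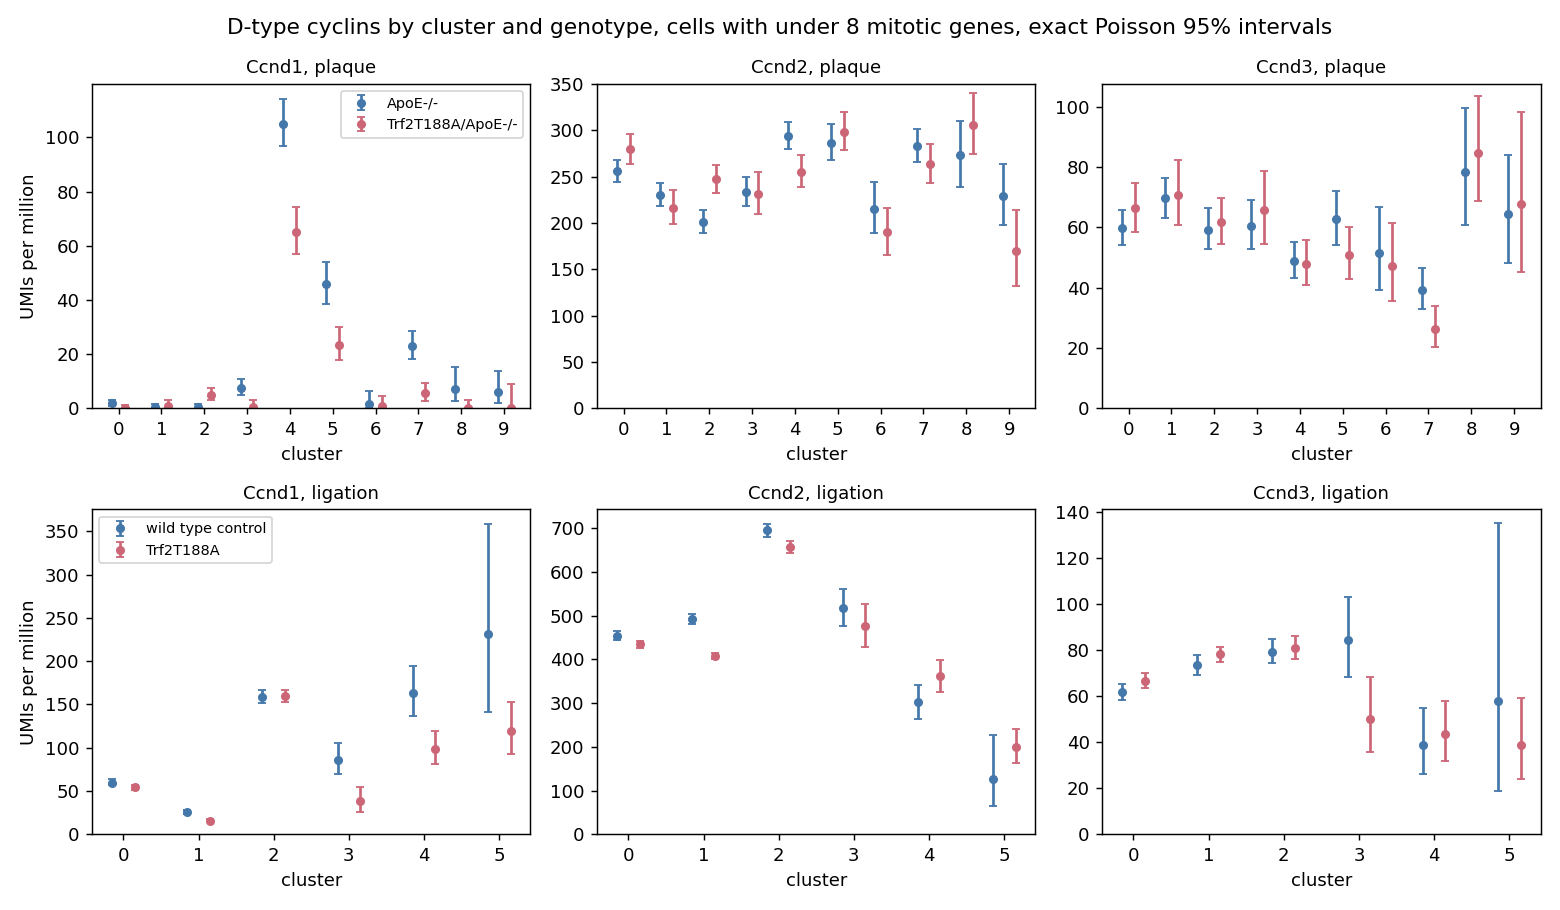
CPM of Ccnd1, Ccnd2 and Ccnd3 by cluster in plaque (top) and ligation (bottom), in cells with under 8 mitotic genes; points are the libraries of each genotype and bars exact Poisson 95% intervals. Ccnd1 is near 0 in the contractile-like plaque clusters 0, 1 and 3 and reaches 105 and 65.2 in cluster 4, while Ccnd2 is present in every cluster.

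Other members differed between states among cells with under 8 mitotic genes. Hmgb2 had 104 CPM in chondrocyte-type-like plaque cells of either genotype, against 19.3 and 20.2 in the contractile-like cluster 0. Mcm6, the helicase subunit, had 130 CPM in interferon-responding-like ligation cells (130.5 in the control and 128.3 in Trf2T188A), and 28.6 to 44.3 in the other ligation clusters. The other replication gene with high levels, Pcna, had 58.1 in the same interferon-responding-like cells, close to its 57.9 in cluster 0. Lmnb1 had 189 CPM in myeloid-like cells (116 in the control and 201 in Trf2T188A) and 5.72 to 17.5 in the other ligation clusters.

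Lmnb1, whose loss is used as a sign of senescence, did not pass 1.5-fold between genotypes over all plaque or all ligated smooth muscle cells. It had 405 and 268 UMIs in the plaque libraries (10.7 and 11.1 CPM, log2 ratio 0.06, −0.17 to 0.28) and 472 and 629 in ligated smooth muscle cells (10.1 and 9.56 CPM, −0.08, −0.25 to 0.10). Hmgb2 had 49.0 and 43.4 CPM in plaque (−0.17, −0.29 to −0.06) and 67.4 and 72.8 in ligation (0.11). Over plaque cells with under 8 mitotic genes Lmnb1 had 299 and 238 UMIs (0.31, 0.06 to 0.56), an interval above 0. By cluster it was uneven. In plaque cluster 1 it had 29 and 32 UMIs (4.74 and 13.2 CPM, log2 ratio 1.48, 0.70 to 2.25), and in plaque cluster 4, mitotic-high cells included, 176 and 75 UMIs (27.7 and 19.4 CPM, −0.52, −0.93 to −0.12). Without mitotic-high cells Lmnb1 had 70 and 45 UMIs in cluster 4 (12.9 and 12.8 CPM), so the lower level there came with the mitotic-high cells. In the interferon-responding-like ligation cluster 3 it had 17 and 3 UMIs, with overlapping intervals of 8.62 to 23.7 and 0.794 to 11.2 CPM.

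The other genes of the pathway that passed 1.5-fold in plaque were all lower in Trf2T188A/ApoE-/-. Of all 14685 genes tested there, 3.75% were lower and 2.01% higher. None of 8 CDKs and regulators and none of 7 CDK inhibitors passed, and 1 of 14 pocket protein, E2F and DREAM genes did, the mitotic transcription factor Foxm1 (log2 ratio −0.89). Of 16 origin licensing and firing genes 4 were lower, Mcm10 (−0.77), Cdc7 (−0.71), Gmnn (−0.67) and Cdc45 (−0.65), and of 23 fork and nucleotide enzymes 3 were lower, Tk1 (−1.36), Uhrf1 (−0.95) and Pole (−0.69). Of 21 mitotic kinase, checkpoint and spindle genes 5 were lower, Ccnf (−1.06), Ndc80 (−0.90), Cdca8 (−0.82), Kif23 (−0.77) and Bub1b (−0.59). Most genes of the origin, fork and mitotic kinase lists were higher in mitotic-high cells than in their neighbours. The part of those cells in these ratios was not tested.

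In ligated smooth muscle cells 3 of 20 mitotic kinase, checkpoint and spindle genes were higher by at least 1.5-fold and none was lower. Of all 14973 genes 3.11% were higher and 2.58% lower. The median log2 ratio of that list was 0.24, and 15 of the 20 lay above 0. Of 16 pocket protein, E2F and DREAM genes 1 was higher, and of 23 fork and nucleotide enzymes 1 was higher and 1 lower. Knl1 (0.81), Ndc80 (0.63) and Cenpa (0.61), which build the kinetochore, were higher, as were E2f2 (0.62) and Rpa3, a subunit of the single-strand DNA binding complex, with 11.1 and 23.9 CPM (1.10). Pold1, a polymerase subunit, was lower (−0.66). No gene among 8 CDKs and regulators, 7 CDK inhibitors and 17 origin licensing and firing genes passed 1.5-fold.

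Reads of neighbouring genes can limit some values. In GENCODE annotation of GRCm38, the build the authors used, the 36 genes lie on 17 chromosomes, 16 of them overlap another annotated gene and 6 overlap one on the same strand, namely small RNA, rRNA, pseudogene or candidate entries.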

How the data were processed

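Single cells of 4 libraries (1 per genotype, plaque or ligation) were sequenced by the authors with Chromium 3′ v3 chemistry, aligned to GRCm38 with Cell Ranger (7.0.0 for plaque, 6.1.2 for ligation, per the submitters' processing notes) and filtered on genes detected and mitochondrial share in Seurat. The submitters' notes name Seurat 4.3.0 for plaque and 3.2.1 for ligation, while the study's methods name 4.3.0 for both. The plaque files hold the clusters that the authors kept for their Confetti signal. The deposited values are a signal per gene and cell, namely UMIs scaled by the authors to 10000 per cell. Dividing by the step that 1 UMI is worth recovered whole numbers in each library (100% within 0.01), and these UMIs were used here. With 1 library per genotype no count model was run.

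The 36 genes and all lists were chosen with earlier results of these data known. All members are named in the text, and a gene of another list is named if it passed 1.5-fold. Log2 ratios (Trf2T188A over control) are of UMIs summed over a library, with exact conditional 95% intervals, for genes with at least 50 UMIs. Shares have exact Clopper-Pearson and levels exact Poisson intervals, and for a share of 0 the limit printed is that of 3 cells of the total. All cover counting error only. Cells were clustered in Seurat 5.3.0 (R 4.3.3) on 2000 variable genes without 178 cycle genes, at 18 components and resolution 0.9 (plaque) or 17 and 0.2 (ligation). A cluster took the name of a fixed list with a mean log2 ratio of at least 0.5 and at least 3 raised markers. No cell was removed as a doublet: Scrublet (scanpy 1.11.5) called at most 0.323% of a library, and the 5% highest scores were left out as an alternative. Python 3.11.15, numpy 2.4.6, scipy 1.17.1 and pandas 2.3.3 were used. Only the log2 ratio and its interval were tested on simulated data. That simulation drew independent counts per gene, so it does not cover molecules gathered in few cells, as the mitotic genes were. Promoter windows were from RefSeq and positions from GENCODE, both on GRCm38.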

Additional observations from a re-analysis of the deposited data

Results flagged for a closer look

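The median log2 ratio (Trf2T188A over control) of 4 gene groups had opposite signs in plaque and in ligation, and the difference was not tested because each genotype had 1 library. It was −1.17 in plaque and 0.51 in ligation for the mitotic genes. For the replication genes it was −0.15 and 0.089, and for the G1/S regulators −0.23 and 0.15. For lamin B1 with HMGB2 it was −0.058 and 0.017. Without mitotic-high cells, a setting chosen after the data were seen, the plaque and ligation medians were −0.13 and 0.0057 (mitotic), 0.093 and 0.0081 (replication), 0.0013 and 0.10 (G1/S regulators) and 0.15 and −0.045 (lamin B1 with HMGB2), so the replication and G1/S medians then had the same sign in both models and the lamin B1 with HMGB2 signs were exchanged.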

How the results depend on the processing

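No paired analysis was possible because each genotype had 1 library. For the same reason no value has a spread between replicates, and intervals cover counting error only. Depth differed between libraries, and few cells carried the mitotic genes. Shares below are in the order plaque ApoE-/-, plaque Trf2T188A/ApoE-/-, ligated control and ligated Trf2T188A. Of the values that answer a comparison, 166 stayed within their error under another setting, 67 moved and 2 reversed. Of single genes 428 stayed, 95 moved and 6 reversed. The cause of each change was not tested.

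With a limit of 2 mitotic genes the class held 6.06, 6.35, 2.29 and 3.40% of cells (ligation difference 1.105 points), with 5 genes 1.13, 0.969, 0.102 and 0.323%, and with 8 genes, a limit added after the data were seen, 1.07, 0.754, 0.0819 and 0.266%. Thinned to 5000 UMIs it held 1.01, 0.696, 0.131 and 0.293%. Seurat phase scores called 13.4, 11.7, 28.3 and 26.2% of cells G2/M (differences −1.65 and −2.09 points). In ligation the sign of the G2/M difference was opposite to that of the mitotic class at each of these limits and after thinning. In plaque it was opposite at limits of 2 and 3 genes, and the same at 5 and 8 genes and after thinning. The replication class held 14.25, 17.4, 2.37 and 4.94% with a limit of 4 genes (ligation difference 2.56 points) and 0.732, 0.861, 0.0819 and 0.190% with 8 genes. Thinned it held 0.270, 0, 0 and 0.0975%, so the plaque difference reversed to −0.270 points, and by S-phase calls 36.55, 38.0, 36.3 and 35.1%, where the ligation difference reversed to −1.175 points.

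By state after thinning, the plaque mitotic class was 0% in contractile-like, 7.19% in modulated-like, 0% in complement-like and 0% in chondrocyte-type-like cells, and the replication class 0, 1.44, 0 and 0%. In ligation the thinned mitotic class was 0.526% in remodelling-like, 0% in modulated-like and 0% in endothelial-like cells, and the replication class 0.1315% in remodelling-like, 0% in modulated-like and 4.92% in myeloid-like cells. At a higher clustering resolution the plaque modulated-like shares were 4.29% (mitotic) and 3.86% (replication) and the ligation remodelling-like shares 1.57 and 1.06%, and at a lower one the chondrocyte-type-like shares were 10.4 and 8.12%.

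The plaque median of lamin B1 with HMGB2 was 0.11 as a mean over cells. With the study's formula and a pseudocount of 1 the mitotic medians were −0.014 (plaque) and 0.0057 (ligation) and the D-type cyclin median in ligation −0.15. The setting of cells with under 8 mitotic genes was added after the data were seen. Its plaque medians were −0.13 (mitotic), 0.093 (replication) and 0.15 (lamin B1 with HMGB2). In it the signs of Cdk1 (0.10), Cenpf (0.50), Ube2c (0.64), Prc1 (0.15) and Rrm2 (0.095) reversed. Other genes changed sign there as well. Among them, Tpx2 went from −0.30 to 0.64 (0.18 to 1.10) and Ccnb2 from 0.13 to −0.86 (−1.61 to −0.15). The intervals of Tpx2 and Ccnb2 in this setting left out 0. Cenpf and Ube2c had fewer UMIs there than the limit set for these ratios. The values of Cdk1, Prc1 and Rrm2 lay within counting error of no change. No higher level in Trf2T188A/ApoE-/- is thus read from the signs of Cdk1, Cenpf, Ube2c, Prc1 and Rrm2. Aurkb in thinned ligation cells reversed to −0.58. Top2a in ligated smooth muscle cells went from 0.24 to −0.36 (−0.65 to −0.07) in the setting of cells with under 8 mitotic genes.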
